A study of Homo sapiens with 4 samples.

Results

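The peaks described here lie in and around 9 human genes that are known targets of native FLI1 in megakaryocytes, and they were measured for a Flag-tagged FLI1 overexpressed in an epithelial line of nasopharyngeal carcinoma, HK1. The members were GP1BA, GP5, GP6, GP9, ITGA2B and PF4, which encode proteins of platelets, and NFE2, RUNX1 and TAL1, which encode transcription factors of the lineage. They were taken by their symbols in GENCODE 44 and make up 9 of the 20046 protein-coding genes annotated there. Every peak was kept that lay within 3 kb of any annotated transcription start site (TSS) of a member, in its gene body, or in the 50 kb either side of the gene. The search returned 46 of the 30819 peaks of the control library and 57 of the 39654 peaks of the IFN-γ library.

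The study mapped FLI1 on chromatin as part of its work on kynurenine production under IFN-γ. In both groups the HK1 cells carried the FLI1 overexpression. The control cells received PBS, and the treated cells received IFN-γ for 24 h. The immunoprecipitation was directed at the Flag tag, and the peaks therefore report the overexpressed protein and not the FLI1 that HK1 cells may make themselves. Each condition had 1 library, so there were 0 replicates, the treatment was not tested, and an effect of IFN-γ and any other difference between the libraries cannot be told apart. The lists hold no expression values, so the labelled cell type could not be checked against marker genes.

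FLI1 is an ETS transcription factor, a family that binds DNA at a GGAA core. In the blood lineage it acts in megakaryocytes beside GATA1, RUNX1 and TAL1, and it activates genes of the platelet surface receptors and granules. GP1BA, GP5 and GP9 encode chains of the receptor for von Willebrand factor, GP6 the collagen receptor, ITGA2B the alpha chain of the fibrinogen receptor, and PF4 a chemokine of the alpha granules. NFE2 encodes a subunit of a factor needed for platelet release, RUNX1 a DNA-binding factor of blood development, and TAL1 a basic helix-loop-helix factor.

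Fold enrichment is the signal at a peak's summit over the local background, as the authors' peak caller gave it. The fragment pileup at a summit was solved from the fold enrichment and the p-value, and the lowest backgrounds of the libraries, 1.06 and 1.54 fragments, gave a depth ratio of 1.46 (IFN-γ over control). The weakest listed summits held 6 (control) and 7 (IFN-γ) fragments. Where a gene has no peak, its signal did not reach the caller's threshold, and binding under that threshold cannot be read from the lists.

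Flag-FLI1 peaks were rare at the promoters of the platelet genes and present at those of NFE2 and RUNX1. In the control library 2 of the 9 members, NFE2 and RUNX1, had a peak within 3 kb of an own TSS, against 61.9% of all protein-coding genes. In the IFN-γ library 3 of the 9 members did, with ITGA2B added, against 59.7% of all protein-coding genes. Of the 6 platelet genes, 0 had a promoter peak without and 1 with IFN-γ. The wider search did not separate the members from other genes, as all 9 had a peak in each library, where 85.8% and 88.8% of the protein-coding genes did.

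The distance from a member's TSS to the nearest summit was also taken. Among the platelet genes it ran from 7.09 kb at GP9 to 37.0 kb at PF4 in the control library, with a median of 12.5 kb. For PF4, 19.1% of the protein-coding genes with a peak on their chromosome had their nearest summit at least as far away, and for GP9 33.9% did. At NFE2 and RUNX1 the nearest control summits lay 126 bp and 133 bp from an own TSS, with 63.4% and 62.6% of the protein-coding genes at least as far, and in the IFN-γ library 118 bp and 117 bp. In that library the platelet genes ran from 50 bp at ITGA2B, closer than either, to 23.6 kb at PF4, with a median of 10.5 kb. TAL1 lay within the range of the platelet genes in the control library, at 9.48 kb, and beyond it in the IFN-γ library, at 31.0 kb. At least as far were 31.9% (control) and 18.4% (IFN-γ) of the protein-coding genes.

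Outside RUNX1 most of the peaks in the windows lay at neighbours. By position, 6 control peaks were at a member's own promoter, 13 elsewhere in a member's gene body, 20 at the promoter of another gene and 7 in the flanks over 3 kb from any TSS. The IFN-γ counts in the same order were 8, 22, 18 and 9. All of the peaks in gene bodies outside the members' own promoters lay in RUNX1, whose body spans 1216.87 kb, where the next longest, GP6, spans 24.6 kb. The IFN-γ peak at chr21:34835680-34835919 is counted in the 22, not in the 18, though it lay 554 bp from the TSS of ENSG00000286153. Of the members' peaks, 56.5% (control) and 47.4% (IFN-γ) lay within 3 kb of any TSS. The whole lists had 56.0% and 46.1%. The TSS nearest to the summit was that of another gene, non-coding genes and pseudogenes included, for 73.9% of the control peaks and 71.9% of the IFN-γ peaks. Among protein-coding TSSs alone it was that of another gene for 50% and 43.9%, and over all TSSs but without the RUNX1 window for 85.2% and 86.2%. The share nearest to another gene was not computed over the windows of all protein-coding genes. The window of a short gene is mostly flank, so these shares cannot be read as a trait of the members. The strongest peaks were also those of neighbours, with maximum folds of 44.1 and 43.2 at the promoters of other genes and 17.6 and 17.0 at the members' own promoters. The median fold over all member peaks was 6.21 for the control and 7.19 for IFN-γ, beside 6.81 and 6.57 over the whole lists.

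**Figure D1:**
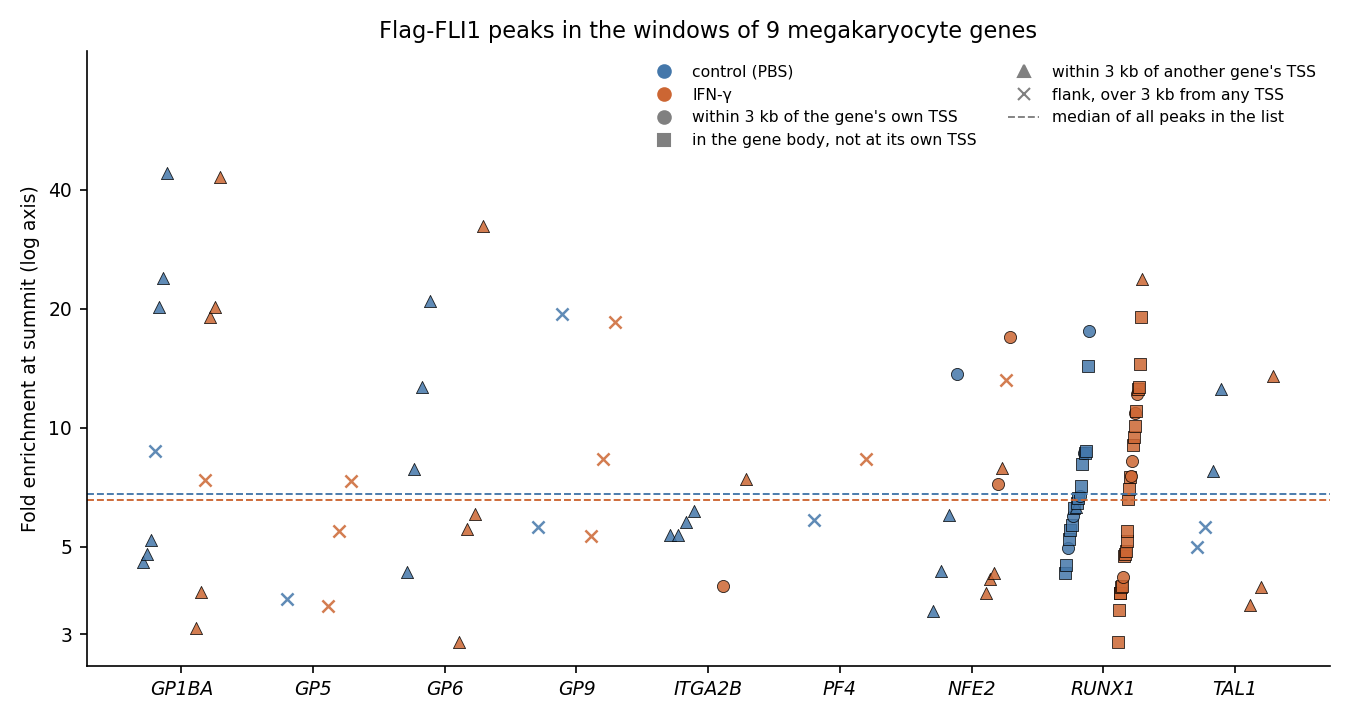
Fold enrichment at the summit (log axis) of each Flag-FLI1 peak in the window of each member, with the control library in blue and the IFN-γ library in orange. Circles mark peaks at the member's own TSS and occur at NFE2, RUNX1 and, for IFN-γ alone, ITGA2B, while the highest points, 44.1 and 43.2 in the GP1BA window, are triangles at the TSS of another gene; dashed lines are the medians of the whole lists.

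GP1BA, on chr17:4932277-4935023 of GRCh38 (plus strand), had 0 peaks within 3 kb of its TSS and 0 in its body in either library. Its window held 7 control and 6 IFN-γ peaks among closely spaced genes, and 5 in each library were shared. The highest stood at PFN1, the gene of the actin-binding protein profilin, with its summit 15.2 kb downstream of the GP1BA TSS. There the control fold was 44.1 from 95 fragments (rank 382 of the list by −log10 p), and the IFN-γ fold was 43.2 from 195 fragments (rank 206). Scaled for depth, the IFN-γ pileup was 1.41 times the control pileup, with an exact binomial 95% interval of 1.10 to 1.82 that covers counting error only.

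The peaks next in strength in that window were again at other start sites. At SPAG7 the control fold was 23.9 from 64 fragments and the IFN-γ fold 20.2 from 105 fragments. At RNF167, which encodes a ubiquitin ligase, they were 20.3 from 54 fragments and 19.0 from 102 fragments, with summits 2 bp from the RNF167 TSS in both libraries. The scaled ratios were 1.13 (0.818 to 1.56) at SPAG7 and 1.30 (0.924 to 1.84) at RNF167, and both intervals held 1. The remaining peaks of the window were weak, with control folds of 4.57 to 8.72 and IFN-γ folds of 3.11 to 7.39.

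GP9, on chr3:129060779-129062406 (plus strand), was the platelet gene with the nearest peak in the control library. A flank peak lay 7.09 kb upstream of its TSS, at chr3:129053544-129053909, with a fold of 5.60 from 13 fragments, and the IFN-γ peak over it had a fold of 5.32 from 22 fragments. The scaled ratio was 1.16 (0.560 to 2.51). GP9 was the gene of the nearest TSS for this peak, and this was the only flank position that a nearest-TSS rule gave to a platelet gene. A stronger pair lay 33.6 kb upstream, 3289 bp from the TSS of EFCC1, with folds of 19.4 and 18.5 from 64 and 70 fragments. The IFN-γ library held a further peak at the very edge of the window, 49.9 kb downstream of the gene by its nearer end, with a fold of 8.35 from 25 fragments, and the first peaks past the 50 kb limit, on the upstream side, lay 54.8 kb away with folds of 7.72 (control) and 6.40 (IFN-γ).

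GP5, on chr3:194394821-194399266 (minus strand), had 1 control peak and 3 IFN-γ peaks, all over 10 kb downstream. The shared peak, at chr3:194375688-194376153 in the control list, had a fold of 3.68 from 9 fragments and ranked 29249 of 30819. In the IFN-γ library its fold was 5.47 from 18 fragments, and the other IFN-γ peaks had folds of 7.33 and 3.55. For all of them the nearest TSS was that of LRRC15, which encodes a membrane protein with leucine-rich repeats.

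GP6, on chr19:55013705-55038264 (minus strand), had 4 peaks in each library, each shared, and all at the promoters of other genes. The nearest to GP6 was at the TSS of GP6-AS1, a long non-coding RNA gene, 7.56 kb beyond the 3′ end of GP6. Its control fold was 20.9 from 42 fragments. With IFN-γ the fold was 32.5 from 135 fragments, at rank 603. The scaled ratio of 2.21 (1.55 to 3.20) was at the 94.7 percentile of all 24639 pairs of overlapping peaks. The sequence below the IFN-γ summit is shown because it holds a repeat of the ETS octamer CAGGAAGT, with every GGAA, or TTCC on the other strand, in capitals (plus strand, chr19:55006020-55006220):
GP6-AS1 peak: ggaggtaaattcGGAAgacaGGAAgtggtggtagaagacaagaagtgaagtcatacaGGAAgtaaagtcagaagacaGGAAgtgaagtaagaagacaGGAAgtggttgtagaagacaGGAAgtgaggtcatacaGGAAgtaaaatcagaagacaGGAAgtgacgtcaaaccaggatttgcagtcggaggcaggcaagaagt
In these bases the octamer occurs 7 times, always on the plus strand, with starts 17 to 37 bp apart. An octamer count of 7 or more near the summit was reached by 6 of all 39654 IFN-γ peaks, and a count of 6 or more by 6 of all 30819 control peaks.

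Upstream of GP6, the peaks at RDH13, a retinol dehydrogenase gene, and EPS8L1 were shared. At the RDH13 summit 24.9 kb upstream the control fold was 12.7 from 25 fragments and the IFN-γ fold 2.87 from 10 fragments. Its scaled ratio of 0.275 (0.118 to 0.592) was the lowest of all member pairs. The second RDH13 peak, 31.2 kb upstream, had folds of 4.32 and 5.53 (ratio 1.72, 0.854 to 3.68), and the EPS8L1 peak 7.85 and 6.04 (ratio 0.687, 0.351 to 1.35).

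ITGA2B, on chr17:44372180-44389649 (minus strand), was the only platelet gene with a peak at an own TSS. This peak, at chr17:44385097-44385540, was found in the IFN-γ library alone. It was weak, with a fold of 3.98 from 11 fragments in the top 90.5% of the list, and its summit lay in intron 4, 50 bp from the TSS of an internal transcript and 4.24 kb downstream of the main (MANE Select) TSS. No GGAA core lay within 100 bp of that summit, where 97.9% of all IFN-γ peaks held one. The 4 control peaks of the window, with folds of 5.35 to 6.14, were at SLC25A39, ENSG00000288961, GRN and FAM171A2. Of these, 0 overlapped an IFN-γ peak, where 77.5% of the whole control list did. The remaining IFN-γ peak was at GRN, the progranulin gene, with a fold of 7.40 from 30 fragments. It began at position 44345504, close to the control GRN peak, which ended at 44345372.

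PF4, on chr4:73980811-73982027 (minus strand), had 1 peak in its window in each library. The single control peak, at chr4:74018894-74019121, lay 37.0 kb upstream with a fold of 5.84 from 11 fragments. The single IFN-γ peak, at chr4:74005469-74005687, lay 23.6 kb upstream with a fold of 8.32 from 25 fragments. They did not overlap, and the nearest annotated TSS to both was that of a pseudogene, RN7SL218P.

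The start sites of the platelet genes are shown to set the missing peaks beside their sequence. RefSeq promoters (GRCh38.p14) matched 6 of the 9 members with 7 entries, and those of GP1BA, PF4 and NFE2 were not used. The 150 bases before the TSS follow on the strand of the gene, with GGAA and TTCC in capitals, for GP9 (chr3:129060629-129060778), GP6 (chr19:55038265-55038414), GP5 (chr3:194399267-194399416) and ITGA2B (chr17:44389650-44389799):
GP9: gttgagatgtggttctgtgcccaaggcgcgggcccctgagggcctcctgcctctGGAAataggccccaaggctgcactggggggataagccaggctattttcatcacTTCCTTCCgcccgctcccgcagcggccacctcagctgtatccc
GP6: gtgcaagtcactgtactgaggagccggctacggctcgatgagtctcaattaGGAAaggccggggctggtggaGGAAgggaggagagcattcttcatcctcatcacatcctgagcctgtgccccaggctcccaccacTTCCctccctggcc
GP5: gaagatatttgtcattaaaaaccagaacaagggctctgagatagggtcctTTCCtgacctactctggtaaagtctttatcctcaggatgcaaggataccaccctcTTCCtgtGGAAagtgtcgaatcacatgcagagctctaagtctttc
ITGA2B: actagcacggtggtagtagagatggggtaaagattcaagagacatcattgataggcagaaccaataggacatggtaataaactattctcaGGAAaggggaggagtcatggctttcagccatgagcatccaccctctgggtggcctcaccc
Each of these stretches holds at least 1 GGAA core, and in neither library did a peak lie within 3 kb of the start sites they precede. The core is common at promoters. In the 300-base entries only the bases before the TSS were searched. There the core was present in 7 of the 7 entries of the members, against 92.5% of the protein-coding entries. Its presence therefore does not set these start sites apart, and the share was not computed for 150-base stretches. The longer word GGAAGT, on either strand, was present before the TSS in the entries of GP9 and GP6, 2 of the 7 entries, against 20.6% of the protein-coding entries. In the same part of the entries the octamers CAGGAAGT and CCGGAAGT were in 0 of the 7, against 6.88%.

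**Figure D2:**
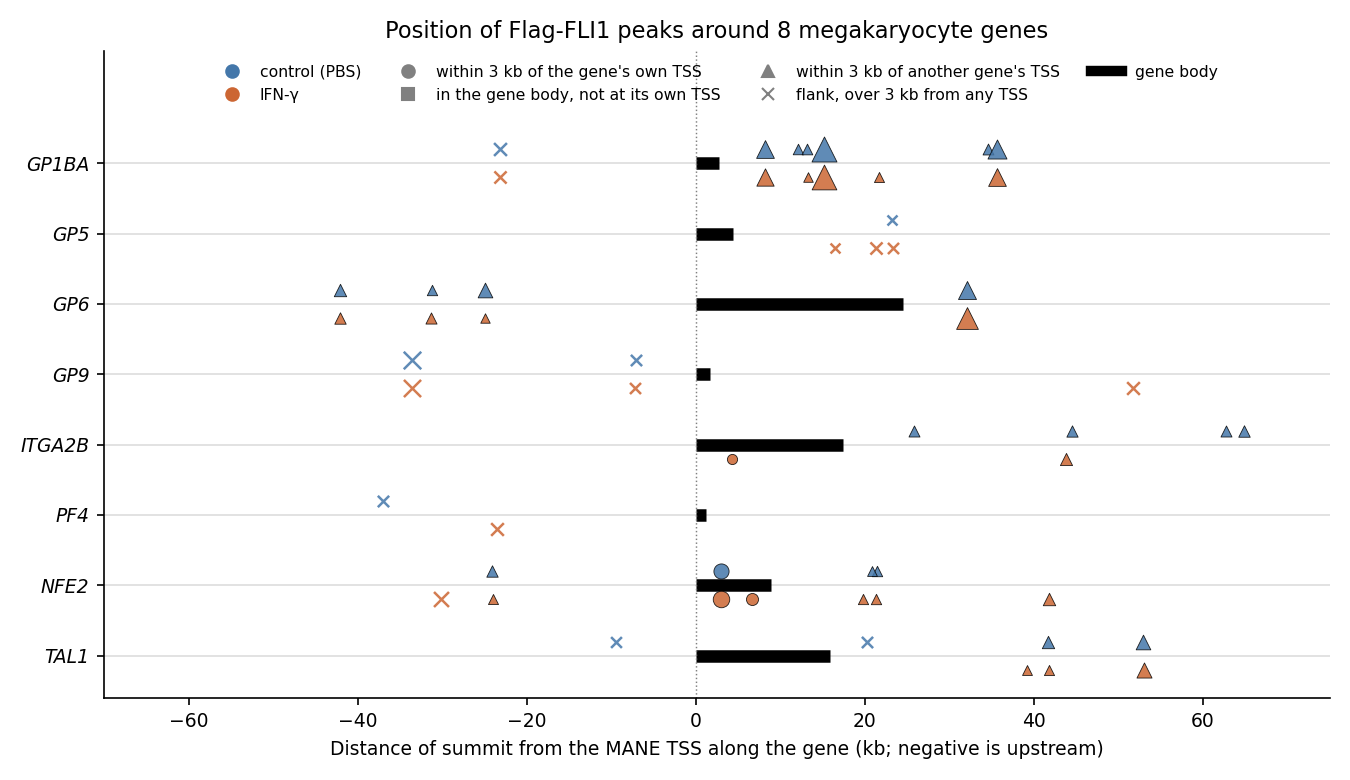
Distance (kb) of each Flag-FLI1 summit from the MANE TSS of 8 members, along the direction of the gene, with control peaks above and IFN-γ peaks below each line and symbol area growing with fold enrichment. Black bars are gene bodies; circles, peaks at an own TSS, appear at NFE2 in both libraries and at ITGA2B for IFN-γ, and the nearest control peak of PF4 is at 37.0 kb upstream.

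NFE2, on chr12:54292111-54301015 (minus strand), carried the promoter peak with the highest fold of all members in the IFN-γ library. In the control library only RUNX1 had a promoter peak of higher fold. The control peak, at chr12:54297848-54298198, had a fold of 13.7 from 30 fragments over a background of 1.26 and ranked 5224. The IFN-γ peak, at chr12:54297835-54298209, had a fold of 17.0 from 64 fragments over a background of 2.83 and ranked 3625, in the top 9.14%. The summits were 8 bp apart in intron 1, 126 bp and 118 bp upstream of an internal TSS at position 54297884. The MANE TSS lay 3.01 kb away from the IFN-γ summit. The scaled ratio was 1.47, with an interval of 0.936 to 2.34 that held 1.

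The IFN-γ library held further peaks at NFE2 and beside it that had no control counterpart. A peak in intron 2, at chr12:54294207-54294428, had a fold of 7.19 from 24 fragments, with its summit 1449 bp from another NFE2 TSS. A flank peak 30.1 kb upstream, at chr12:54330876-54331331 on the side of COPZ1, a coatomer gene, had a fold of 13.2 from 51 fragments and ranked 5732. The sequences around the 3 summits are shown because the peak shared by the libraries lacks the octamer that both IFN-γ peaks hold (plus strand, GGAA and TTCC in capitals, chr12:54297942-54298062, chr12:54294249-54294369 and chr12:54331039-54331159):
NFE2 intron 1, both libraries: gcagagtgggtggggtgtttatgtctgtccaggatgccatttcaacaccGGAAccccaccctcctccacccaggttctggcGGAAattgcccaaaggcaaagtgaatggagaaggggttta
NFE2 intron 2, IFN-γ: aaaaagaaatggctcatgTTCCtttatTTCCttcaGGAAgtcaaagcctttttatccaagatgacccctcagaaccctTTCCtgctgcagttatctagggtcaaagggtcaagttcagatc
NFE2 upstream flank, IFN-γ: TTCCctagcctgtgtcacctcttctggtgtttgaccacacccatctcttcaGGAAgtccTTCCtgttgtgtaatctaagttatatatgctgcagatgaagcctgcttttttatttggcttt
The intron 1 window has 2 GGAA cores outside any octamer, and the other windows have 1 CAGGAAGT each among 4 and 3 cores. Not all IFN-γ peaks of the NFE2 window without a control counterpart held the octamer. Those at CBX5 and HNRNPA1, described below, had 0 within 100 bp of their summits.

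The other peaks of the NFE2 window were at neighbours and had lower folds, except the IFN-γ peak at CBX5, at 7.89 against 7.19 in intron 2. At COPZ1, 24.1 kb upstream of the MANE TSS, the folds were 6.0 from 14 fragments and 3.81 from 19 fragments, with a ratio of 0.932 (0.443 to 2.01). Near CBX5, the gene of a heterochromatin protein, and HNRNPA1, the gene of an RNA-binding protein, folds ranged from 3.45 to 4.35 for the control and from 4.15 to 7.89 for IFN-γ.

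TAL1, on chr1:47216290-47232225 (minus strand), had 0 promoter or gene body peaks in either library. In the control library 2 flank peaks had TAL1 as their nearest TSS, 1 lying 4.28 kb beyond the 3′ end with a fold of 5.62 from 11 fragments and 1 lying 9.48 kb upstream with a fold of 4.98 from 11 fragments. Neither overlapped an IFN-γ peak. The pairs that were shared stood at PDZK1IP1, with folds of 7.79 and 3.96, and between CYP4A22-AS1 and LINC00853, with folds of 12.5 from 25 fragments and 13.5 from 46 fragments. Their ratios were 0.778 (0.366 to 1.67) and 1.26 (0.760 to 2.15), and a weak IFN-γ peak, with a fold of 3.56 from 10 fragments, was also assigned to PDZK1IP1.

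RUNX1 stood apart from the other members by the size of its locus. GENCODE annotates it over 1216.87 kb (chr21:34787801-36004667, minus strand) by way of long transcripts, of which the MANE transcript covers 262 kb. Its window held 19 control and 28 IFN-γ peaks, or 1.44 and 2.13 per 100 kb, beside 2.13 and 2.37 per 100 kb over the windows of all protein-coding genes. Per length searched, RUNX1 thus had fewer peaks than that background in both libraries. Without RUNX1 the windows of the other 8 members held 27 and 29 peaks.

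There were 5 promoter peaks at RUNX1 in each library, at the upstream start region and at the internal one in MANE introns 3 and 4. The one with the highest fold, at chr21:34888071-34890386 in the control list, had a control fold of 17.6 from 38 fragments (rank 3402), and the IFN-γ fold was 12.2 from 37 fragments (rank 8298). Its summits lay 133 bp and 117 bp from an internal TSS, and the scaled ratio was 0.669 (0.414 to 1.08). At the upstream region the control peaks had folds of 8.61 from 23 fragments and 5.98 from 19 fragments, and the IFN-γ peaks over them folds of 7.57 and 4.19. An IFN-γ peak without a control counterpart, at chr21:35048747-35049702, covered the MANE TSS itself with a fold of 8.26 from 29 fragments and its summit 437 bp inside the gene. The remaining control promoter peaks, with folds of 6.73 and 4.97, were covered by a single IFN-γ peak with a fold of 10.9 from 37 fragments.

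The peak with the most fragments and the highest −log10 p inside RUNX1 in each library was intronic and shared. In intron 7 of the MANE transcript, 22.3 kb from the nearest TSS, the control fold was 14.3 from 47 fragments (rank 3306) and the IFN-γ fold 19.1 from 99 fragments (rank 1788). The scaled ratio was 1.45 (1.01 to 2.09). The next in the IFN-γ library by −log10 p within the gene, at chr21:35475763-35476121, lay 427 kb upstream of the MANE TSS, with folds of 8.08 from 18 fragments and 14.5 from 46 fragments and a ratio of 1.76 (0.998 to 3.22). Beyond the 3′ end, with its control summit 41.9 kb from the gene, the peak at the TSS of the long non-coding RNA gene LINC01426 ranked in the top 52.8% of the control list and the top 5.07% of the IFN-γ list. Its folds were 6.30 from 17 fragments and 23.8 from 80 fragments, and its ratio of 3.23 (1.90 to 5.82) was the highest of all member pairs, at the 99.2 percentile of all pairs.

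The windows around these summits differ in their letters and are shown for that reason (plus strand, chr21:34807634-34807754, chr21:34745733-34745853 and chr21:35206604-35206804, with GGAA and TTCC in capitals and, in the first, the AP-1 word TGANTCA as well). The peak of the last, 157 kb upstream of the MANE TSS, was chosen after its values were seen, for its GGAA repeat, and had folds of 8.64 from 20 fragments and 12.6 from 43 fragments:
RUNX1 intron 7: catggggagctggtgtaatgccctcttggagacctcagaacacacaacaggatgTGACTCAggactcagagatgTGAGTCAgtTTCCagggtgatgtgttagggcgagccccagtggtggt
LINC01426: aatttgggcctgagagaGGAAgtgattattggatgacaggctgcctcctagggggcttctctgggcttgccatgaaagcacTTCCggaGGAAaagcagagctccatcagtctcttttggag
RUNX1 upstream repeat: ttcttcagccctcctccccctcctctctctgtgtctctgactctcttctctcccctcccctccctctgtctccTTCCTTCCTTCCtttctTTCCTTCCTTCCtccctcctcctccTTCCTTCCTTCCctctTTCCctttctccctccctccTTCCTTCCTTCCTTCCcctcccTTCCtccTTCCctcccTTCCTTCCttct
The intron 7 window has 2 AP-1 words and 1 TTCC, the LINC01426 window has 1 octamer CCGGAAGT read on the minus strand, and the repeat holds 18 cores with a longest run of 4 TTCC units.

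Outside the promoters of RUNX1 itself, introns of its MANE transcript held 4 control peaks, of which 3 were shared, and 6 IFN-γ peaks, of which 3 were shared. Beyond the MANE TSS there were 9 control peaks with folds of 4.30 to 8.76 and 16 IFN-γ peaks with folds of 3.45 to 14.5, and 8 in each library were shared. The 12 IFN-γ peaks of the whole RUNX1 window that no control peak overlapped had a median fold of 4.35 from 14.5 fragments, while the 16 shared ones had 10.5 from 30.5 fragments.

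**Figure D3:**
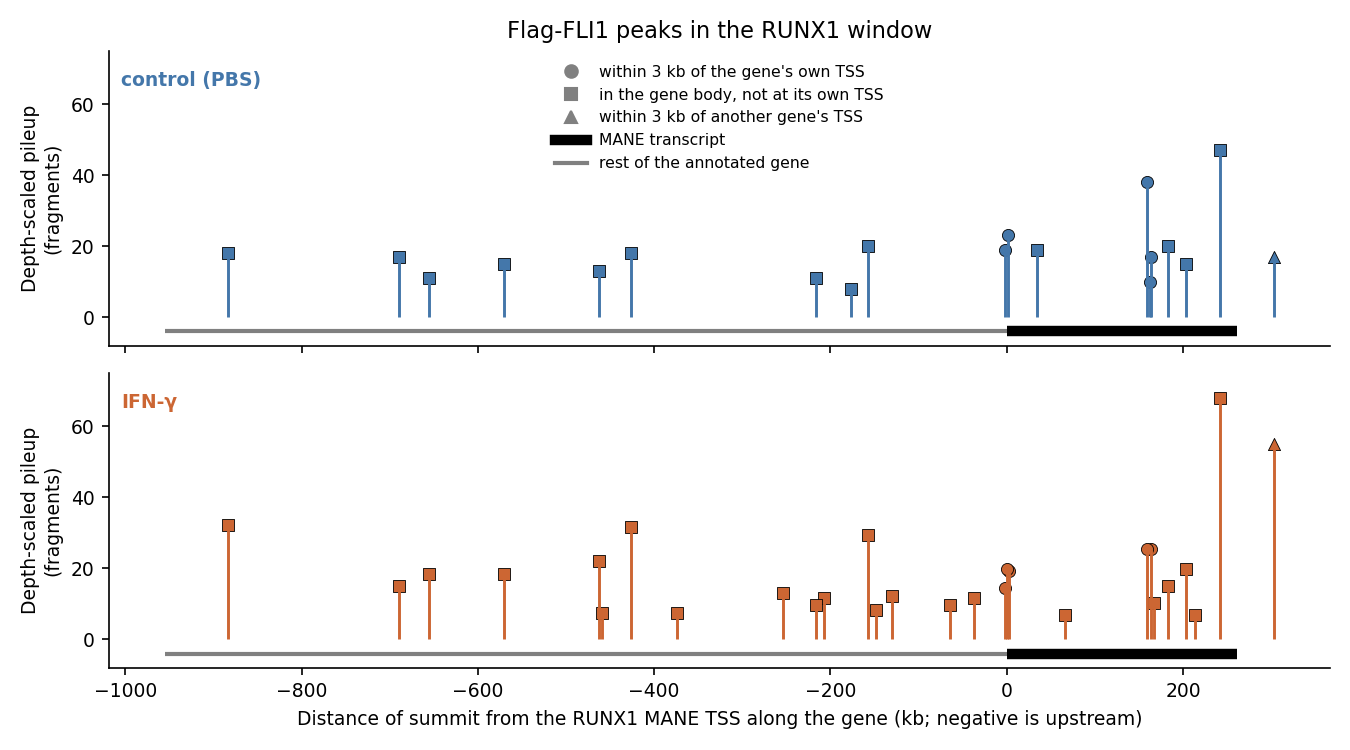
Summit pileup in fragments, with the IFN-γ library divided by the depth ratio of 1.46, against the distance (kb) of the summit from the RUNX1 MANE TSS along the gene, control above and IFN-γ below. The highest stem in each panel is the intron 7 peak (47 and 68.0 fragments), and the stem at the right end, at LINC01426, measures 17 fragments for the control and 54.9 for IFN-γ.

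Over all members, 34 of the 46 control peaks, or 73.9% (exact Clopper-Pearson 95% interval 58.9% to 85.7%), shared at least 1 bp with an IFN-γ peak, beside 77.5% of the whole list. In the other direction 33 of the 57 IFN-γ peaks, or 57.9% (44.1% to 70.9%), were shared, beside 61% of the whole list. The 34 pairs had a median scaled ratio of 1.25. Over all pairs the median was 1.00, over pairs over 3 kb from any TSS 1.24, and over pairs at promoters 0.872. The 17 pairs of the RUNX1 window had a median of 1.45 and the 17 others 1.13.

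The interval of the ratio lay above 1 for 6 of the 34 pairs, where it did so for 12.1% of all pairs, and below 1 for 1 pair, against 8.92% of all pairs. The 6 were at PFN1, GP6-AS1, LINC01426, RUNX1 intron 7, a RUNX1 promoter peak and a RUNX1 gene body peak nearest to the pseudogene PPP1R2P2, and the pair below 1 was at RDH13. In the last-named RUNX1 pairs the summits lay 926 bp and 128 bp apart, so the libraries may not report the same site there. With summits within 100 bp, 28 pairs were left, with a median of 1.14, and the interval was above 1 for 4 of them and below 1 for 1. These counts rest on pileups of 9 to 195 fragments, and with 1 library per condition the intervals leave out the spread between replicates.

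**Figure D4:**
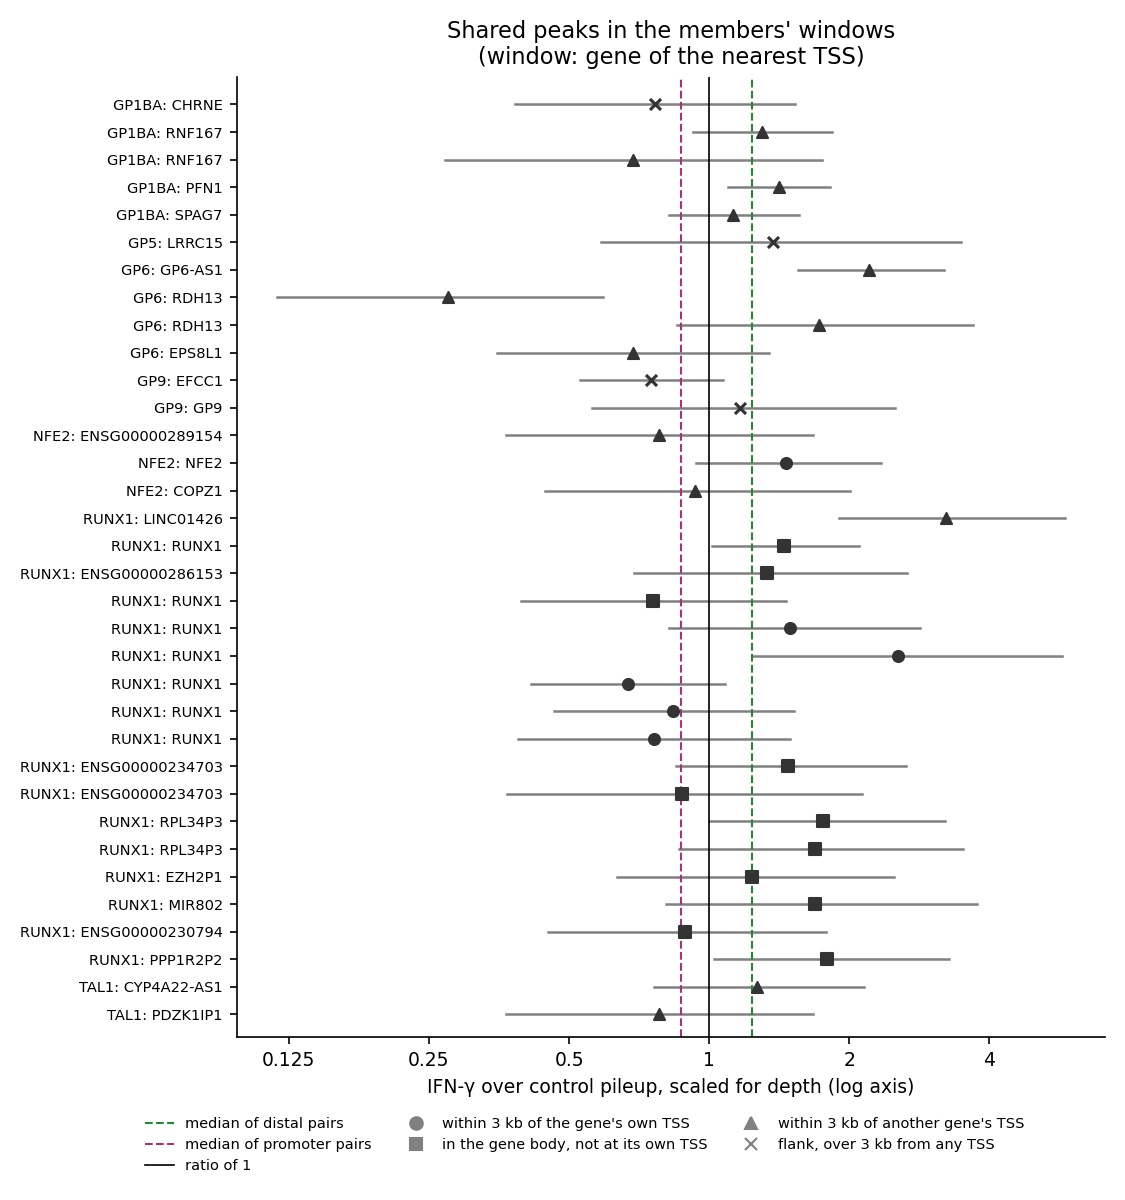
Ratio of IFN-γ to control summit pileup after scaling for depth (log axis) for the 34 pairs of overlapping peaks in the members' windows, each named by its window and the gene of the nearest TSS; bars are exact binomial 95% intervals for counting error. LINC01426 at 3.23 and GP6-AS1 at 2.21 lie farthest to the right and RDH13 at 0.275 farthest to the left, and most bars cross 1.

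The letters near the summits were counted in the same way for the members' peaks and for the lists. An ETS octamer (CAGGAAGT or CCGGAAGT on either strand) lay within 100 bp of 5 of the 46 summits in the control library and 7 of the 57 with IFN-γ, or 10.9% (3.62% to 23.6%) and 12.3% (5.08% to 23.7%), beside 12.8% and 13.5% of all peaks. At the members' own promoters 0 of the 6 control peaks and 1 of the 8 IFN-γ peaks, that of NFE2 intron 2, had an octamer. The others lay at PFN1, RNF167, GP6-AS1 and LINC01426 in both libraries, in a weak control peak of the RUNX1 body, and in the IFN-γ library also at LINC00853 and in the flank by COPZ1. The core GGAA lay near 44 control and 56 IFN-γ summits, beside 96.1% and 97.9% of all peaks. Runs of at least 4 GGAA units lay near 2 control summits (4.35%, 0.531% to 14.8%) and 1 IFN-γ summit (1.75%, 0.0444% to 9.39%), all in RUNX1, beside 6.94% and 10.8% of all peaks. The AP-1 word TGANTCA was near 6 control summits (13%) and 9 IFN-γ summits (15.8%), beside 17.7% and 22.1% of all peaks. The GATA word AGATAA was near 5 summits in each library (10.9% and 8.77%), beside 6.37% and 7.90% of all peaks, and the RUNX word TGTGGT near 3 and 6 (6.52% and 10.5%), beside 9.58% and 10.6%.

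Other genes of the megakaryocyte programme were counted by the same roles. Of 17 further genes of surface and granule proteins, 5 had a promoter peak in each library, among them THBS1 and CD9 in both, GP1BB in the control library and TUBB1 in the IFN-γ library. Of 17 further transcription factor genes, 15 had one with PBS and 14 had one with IFN-γ, and GATA1 and LYL1 had none in either. Together these are 20 and 19 of 34 genes, against the same 61.9% and 59.7% of all protein-coding genes, so both roles combined were near the background, while the surface and granule genes, at 29.4% in each library, were below it and the transcription factor genes, at 88.2% and 82.4%, above it. The list was drawn up from general knowledge of the lineage with earlier results of these data known, and no test was run on it.

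Values are given for the 4 of these genes whose promoter peaks reached the highest −log10 p in either library. At ETV6, an ETS family repressor gene, the control fold was 35.4 from 85 fragments and the IFN-γ fold 37.1 from 115 fragments. At GFI1B, a repressor gene of the megakaryocyte and red cell lineages, they were 25.1 and 22.5, with the summits 35 bp and 11 bp from the TSS of TSC1. At TCF3, which encodes a partner of TAL1, they were 32.6 and 17.2. At MAFK, which encodes a partner of NFE2, the peaks with the highest −log10 p did not overlap between the libraries, and their folds were 19.0 (control) and 17.6 (IFN-γ).

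**Figure D5:**
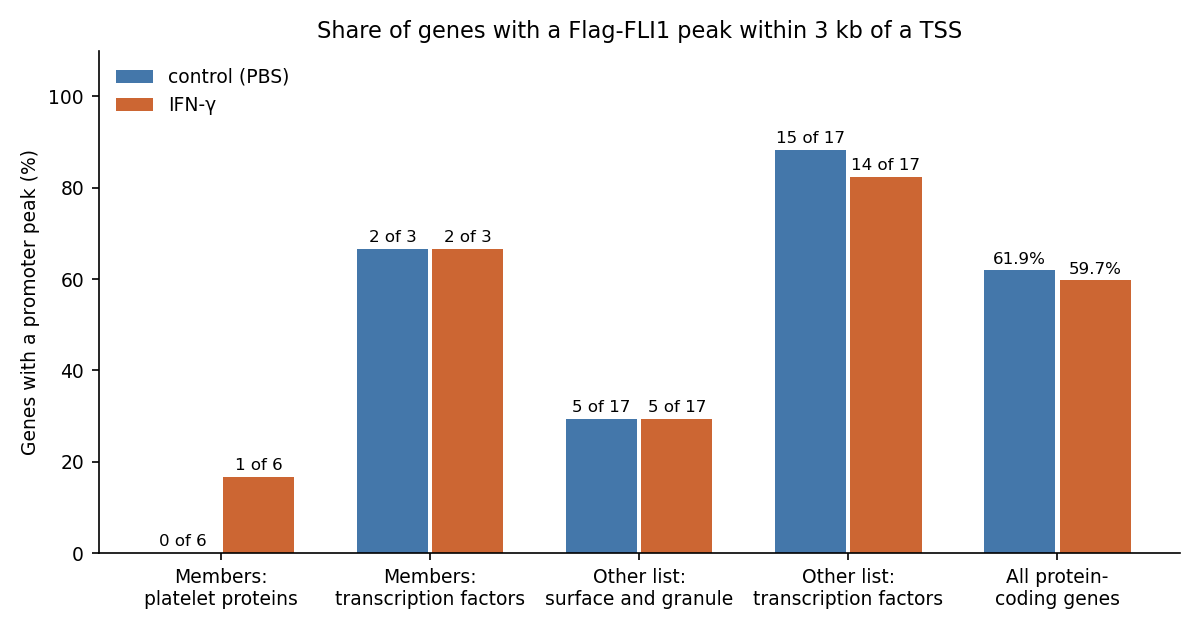
Percent of genes with a Flag-FLI1 peak within 3 kb of a TSS in the control (blue) and IFN-γ (orange) libraries, for the members by role, for the other megakaryocyte genes and for all protein-coding genes, with counts above the bars. The platelet genes among the members reach 0 of 6 and 1 of 6, the other surface and granule genes 5 of 17 in each library, and the other transcription factor genes 15 and 14 of 17, beside 61.9% and 59.7% of all protein-coding genes.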

How the data were processed

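The data were Flag ChIP-seq peaks of HK1 cells overexpressing Flag-FLI1, with 1 library from PBS-treated and 1 from IFN-γ-treated cells. The 2 input samples were not analysed here. According to the submitters' processing notes and the methods, the authors used Cutadapt 1.18 for trimming, Bowtie2 2.3.4.1 for alignment to GRCh38, Picard against duplicates, and MACS2 2.1.2 to call the peaks of each library. Whether the input entered the calling is not given in the sources used here. For each peak the deposited lists give the fold enrichment at the summit, a ratio to the local background, with −log10 p-values and −log10 q-values as written by the authors' caller.

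Positions were converted to 1-based coordinates. MACS2 computes fold enrichment as the pileup plus 1 over the background plus 1 and takes p from a Poisson distribution, and whole-number pileups that return the deposited values were found for 100% of the peaks (largest relative error 6.21e-06). The lists give no read totals, so depth was compared through the lowest backgrounds. Median pileups were 16 and 22 fragments, and such summits give wide intervals. Pileup ratios carry exact binomial intervals and shares exact Clopper-Pearson intervals, at 95% and for counting error only.

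Genes and TSSs were from GENCODE 44, promoters from RefSeq (GRCh38.p14), and genome sequence from GRCh38. Motifs were searched on both strands in the 201 bp around each summit. Every member was named with every peak in its window. For members with more than 6 peaks in a library, the promoter peaks and the 3 of highest −log10 p in each library were named, with the rest as ranges. Of the other megakaryocyte genes, the 4 with the highest −log10 p were given values. The members and lists were chosen with earlier results of these data known. No test of treatment was made. Values were recomputed at q-values under 0.01 and under 1e-05, with lists of equal length, with other promoters, windows, gene extents, overlaps, TSS sets, motifs and depth scaling, and without RUNX1, which was added after the data were seen. The steps were tested on simulated data. Python 3.11.15, numpy 2.4.6, scipy 1.17.1, pandas 2.3.3 and matplotlib 3.10.9 were used.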

Additional observations from a re-analysis of the deposited data

How the results depend on the processing

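The count of members with a promoter peak was 2 in the control library under each alternative for it, and 3 or 2 in the IFN-γ library. It was 2 there with a q-value under 1e-05, with lists of equal length and with the MANE TSS alone, each of which dropped the ITGA2B peak. With a window of 10 kb, which searches less sequence, the peaks became 26 and 33 (control, then IFN-γ), and the share nearest to another gene became 53.8% and 51.5%. Without RUNX1 the peaks became 27 and 29, and that share 86.2% in the IFN-γ library. With protein-coding TSSs alone it was 50% and 43.9%, since fewer start sites compete. Of the other megakaryocyte genes, 12 had an IFN-γ promoter peak at the MANE or canonical TSS. The share of all protein-coding genes with a promoter peak was not recomputed under any alternative. The promoter counts of this section therefore cannot be set against a background. The other 70 summary values under an alternative stayed within their interval or 1.5 times. All 34 single ratios kept their side of 1 when scaled by the median pair. That median was 1.0038, so this scaling could hardly move a ratio and is no check of the depth ratio. Summits of 10 to 30 fragments limit what a single peak can show, and a missing peak says only that it was under the cutoff. No paired analysis was possible because there was 1 library for each treatment.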
